A study of Homo sapiens with 6 samples.

Results

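The 39 HOX genes and 10 antisense or intergenic RNAs of the HOX clusters were examined in cells of SKOV3, a long-established line from a human ovarian cancer, as floating spheres and as cells differentiated from them. The members were taken from the expression table by name alone, as HOX followed by a cluster letter and a number, or as HOTAIR, HOTTIP, HOTAIRM1, HOXA-AS2, HOXA-AS3, HOXA10-AS, HOXA11-AS, HOXB-AS1, HOXC-AS1 and HOXD-AS2. The name HOXC5 stood on 2 entries, so the 49 names gave 50 of the 58735 entries of the table. Floating spheres (FS, titled stem cells, 3 libraries) had been formed in ultralow-attachment plates in DMEM/F12 with a B27 serum replacement, to which the methods of the study add EGF, bFGF and insulin. Sphere-differentiated cells (SDC, titled adherent cells, 3 libraries) had been such spheres, recultured in DMEM with fetal bovine serum until the cells attached. The labels name no engineered allele and no drug for either group, and both came from 1 line. Medium, serum and attachment changed together with the cell state, so their parts in any difference cannot be told apart. A sphere culture was not a sorted population of stem cells, and in such bulk libraries fewer cells that use a gene and less RNA per cell cannot be told apart.

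HOX proteins are homeodomain transcription factors that give cells along the body axis their positional identity. Their genes lie in 4 clusters, and genes at the same place in different clusters form 13 paralog groups. Low-numbered genes stand at the 3′ end and pattern anterior structures, and high-numbered genes at the 5′ end pattern posterior ones. In the female reproductive tract HOXA9, HOXA10, HOXA11 and HOXA13 mark successive levels from the oviduct to the vagina, and ovarian cancers are known for regaining HOX genes of this kind. The clusters also produce noncoding RNAs, several of which bind chromatin regulators.

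The libraries held between 14725462 and 16376331 fragments recovered from FPKM (fragments per kilobase of exon, scaled by a factor for each library). Across genes, libraries correlated at 0.966 to 0.977 within SDC, 0.928 to 0.952 within FS and 0.841 to 0.906 between the groups. Of 7 markers fixed for ovarian cancer epithelium, ERBB2, PAX8, KRT8, KRT18 and EPCAM were measured in every library, MUC16 did not exceed 0.0499 FPKM and WT1 was at 0. EPCAM and KRT18 fell in FS, from 6.51 to 0.885 and from 112 to 53.4 FPKM on average. Of 4 endothelial markers CDH5 and KDR were at 0 in all 6 libraries, VWF did not exceed 0.0590 FPKM and PECAM1 rose, from 2.68 to 5.88 FPKM on average. Of 5 leukocyte markers PTPRC and MS4A1 were at 0 in all 6 libraries, CD3E and CD68 did not exceed 0.186 and 0.136 FPKM, and CD14 measured 7.96 to 11.3 FPKM in SDC and 8.16 to 15.5 FPKM in FS. Of 6 fibroblast markers LUM, COL1A2 and PDGFRB did not exceed 0.0198, 0.0110 and 0.206 FPKM, COL1A1 measured 0.98 to 1.07 FPKM in SDC and 0.674 to 2.55 FPKM in FS, and COL3A1 rose, from 1.18 to 2.57 FPKM on average. DCN was at 0 in SDC and at 0.125, 0.210 and 0.0916 FPKM in FS. Their part in the HOX values was not tested.

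SKOV3 cells carried a broad HOX code, with the highest levels in paralog groups 9 to 13. Of 40 HOX gene entries, 28, 29 and 28 reached 1 FPKM in SDC 1, 2 and 3, and 31 did in each FS library. Summed over all HOX genes, the level was 174 ± 5.47 FPKM in SDC and 175 ± 4.26 FPKM in FS (SD, n = 3 libraries). The groups overlapped in this total, and also when each library was rescaled to TPM, where the ratio of FS to SDC was 0.951. What changed was the share of single genes within it. Paralog groups 9 to 13 held 65.9% to 66.7% of the summed HOX level in SDC and 57.4% to 65.2% in FS. HOXB9 alone held 15.4% to 16.6% of it in SDC and 4.10% to 7.92% in FS. Since HOXB9 belongs to groups 9 to 13, their lower share in FS does not describe the other posterior genes. The mean sums of these groups were lower in FS for HOXA and HOXB, and higher for HOXC and HOXD.

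**Figure D1:**
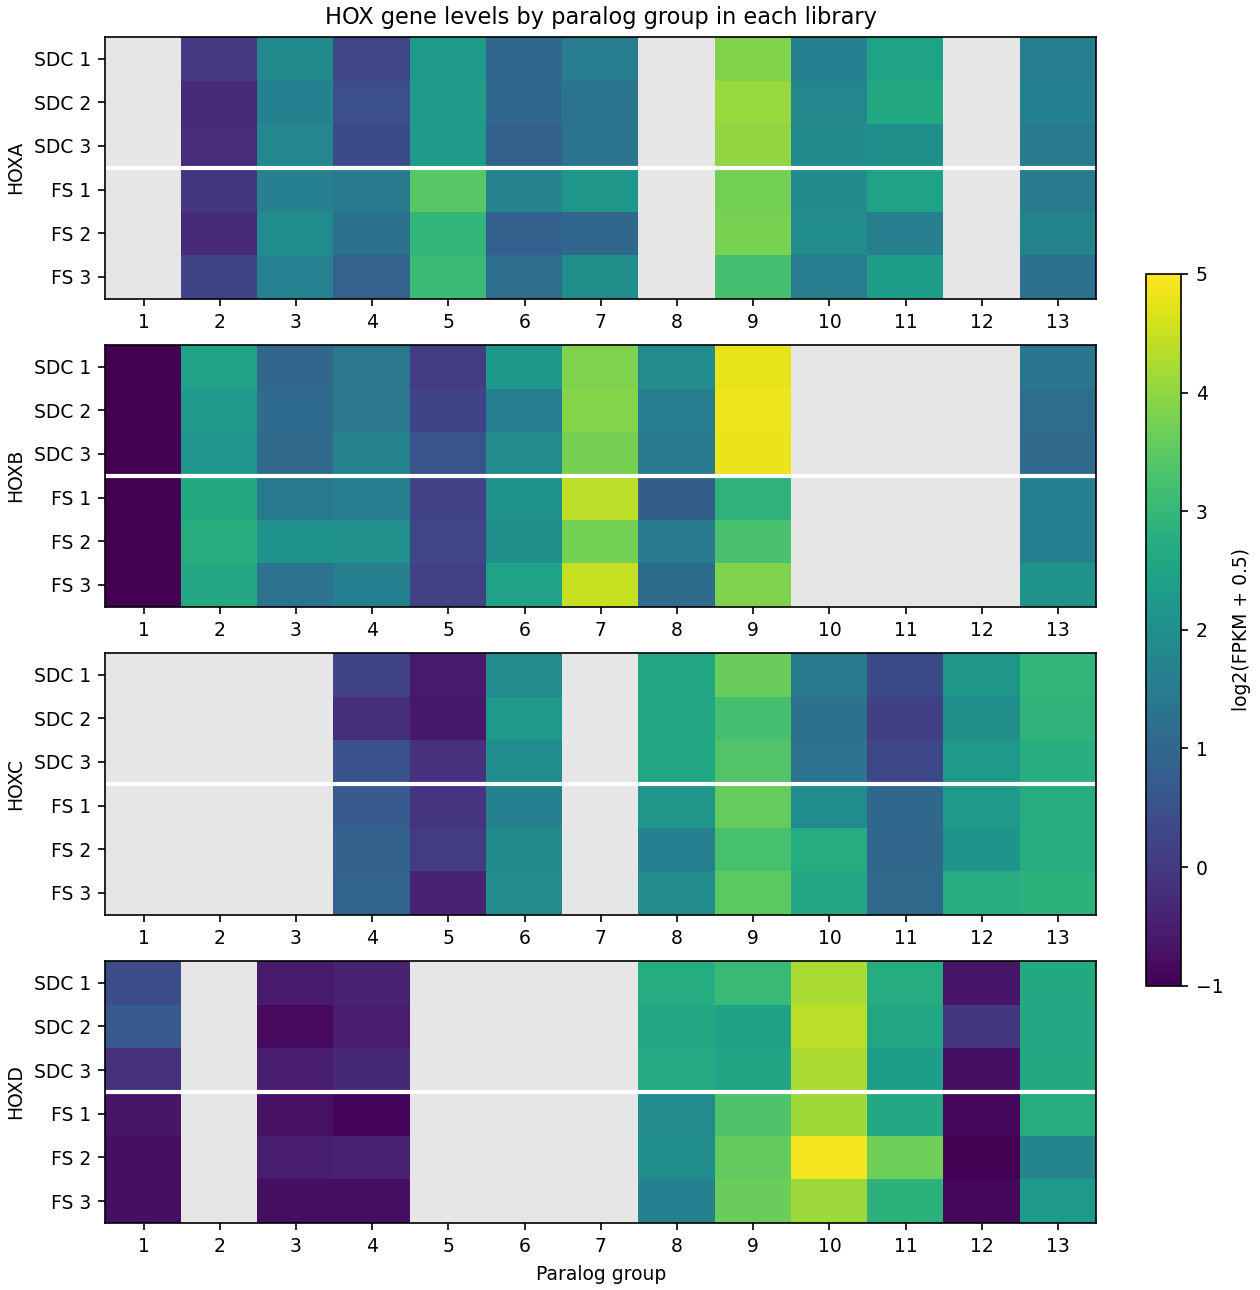
Levels of the HOX genes in each library, as log2(FPKM + 0.5) by colour, with 1 panel per cluster, paralog groups along the horizontal axis and libraries as rows (SDC above the white line, FS below). Grey fields are paralog groups that the cluster lacks or that are not reported here. HOXB9 is the brightest field of the HOXB panel in all 3 SDC rows and is darker in all 3 FS rows, while HOXD10 stays bright in all 6 rows.

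All 15719 genes whose mean over the libraries reached 0.5 FPKM were compared with limma on log2(FPKM + 0.5), a scale on which the fold change of low genes is understated. Of the 50 entries 40 were tested, 10 rose and 3 fell in FS (adjusted p under 0.05 over all genes), and 27 did not pass. Without SDC 2 or SDC 3 the number of members that rose was 5 and 6. The share of members that passed was 32.5%, against 33.6% of all genes tested, so the family as a whole was not called more often than the background. By direction, 25.0% of the tested members rose against 15.8% of all genes, and 7.50% fell against 17.8%. The groups did not overlap for 20 of 40 tested members and for 51.6% of all genes, with FS above for 14 members against 24.3% of genes and below for 6 members against 27.2%. The median log2 fold change of the tested members was 0.28 (0.19 for the HOX genes, 0.95 for the RNAs), and that of all genes was 0.0032. At the threshold the study used (p under 0.05 before adjustment, fold change over 0.5 in either direction on the log2 scale), 13 members were higher and 3 lower, or 16 of 40 against 39.4% of all genes. The genes that rose were HOXA4, HOXA5, HOXB13, HOXC10, HOXC11 and HOXD9, and the RNAs that rose were HOTAIR, HOXA-AS2, HOXC-AS1 and HOXD-AS2. The genes that fell were HOXB9, HOXC8 and HOXD8.

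**Figure D2:**
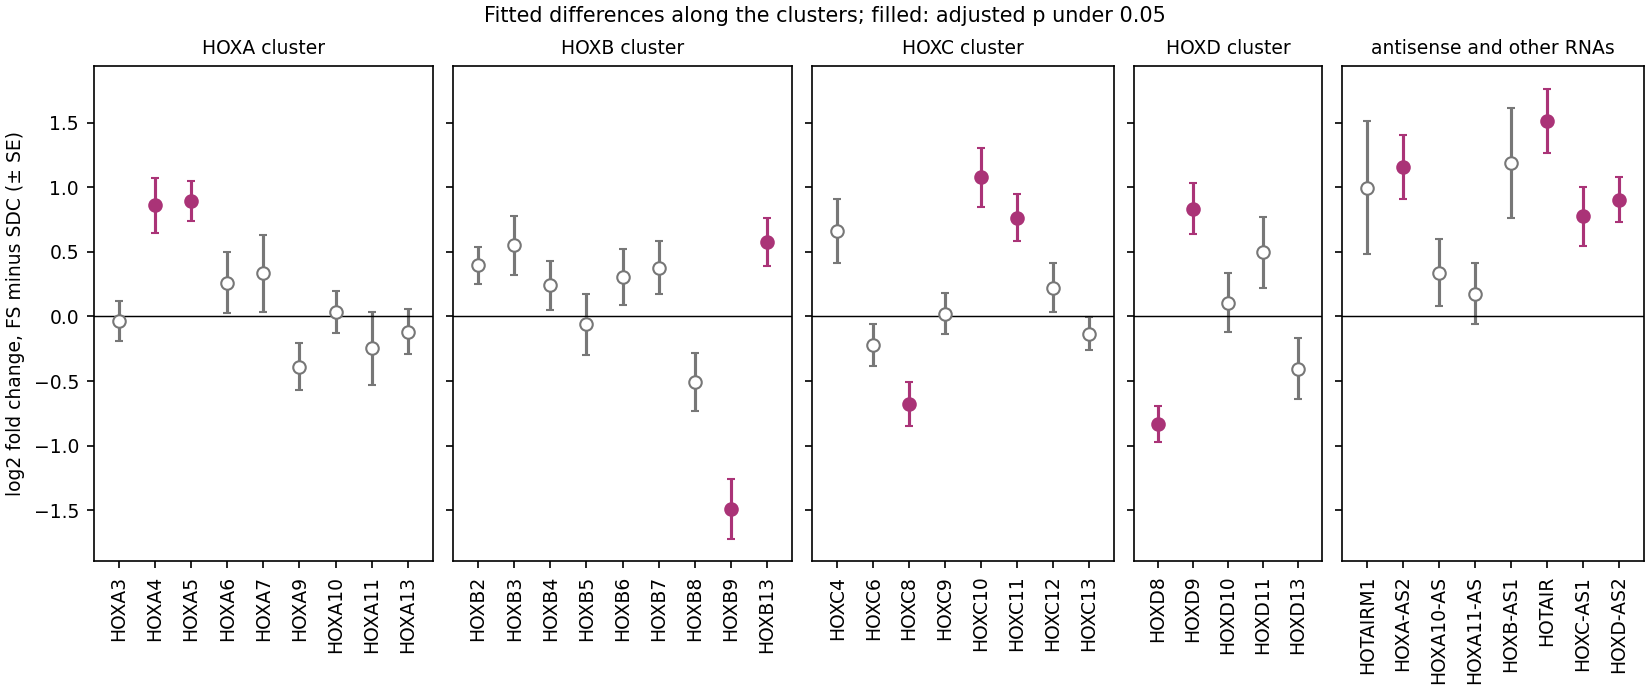
Fitted log2 fold changes (FS minus SDC, on log2(FPKM + 0.5)) of 39 tested members in cluster order, with bars of 1 SE and filled points for an adjusted p under 0.05. Calls of both directions stand in the HOXB, HOXC and HOXD panels, HOXB9 has the lowest value at -1.49 and HOTAIR the highest at 1.51, and all 8 tested RNAs lie above 0.

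HOXB9, a posterior gene that in mice patterns the thoracic ribs, had the lowest fitted fold change of the tested members on log2(FPKM + 0.5). It measured 27.6, 28.4 and 27.9 FPKM in SDC 1, 2 and 3, and 6.98, 9.19 and 13.9 FPKM in FS 1, 2 and 3. The SDC libraries lay within 1 FPKM of each other, and every FS library was below them, with FS 3 nearest. The log2 fold change was -1.49 (SE 0.23, adjusted p = 0.0039), a mean 2.79-fold lower in FS. HOXB9 was the highest HOX gene in all 3 SDC libraries and stood at rank 7, 6 and 3 in FS 1, 2 and 3. No other annotated exon overlaps it (chr17:48621159-48626356, minus strand, hg38), and 302 to 1185 fragments lay behind its values.

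Of the other 8 tested HOXB genes 1 passed, HOXB13, and it rose. HOXB13, best known from the prostate lineage, measured 2.04, 1.71 and 1.59 FPKM in SDC and 2.56, 2.56 and 3.65 FPKM in FS, without overlap. It rose by 0.58 on the log2 scale (SE 0.18, adjusted p = 0.046), a call that was lost under 9 of 17 alternatives. HOXB7, a trunk gene reported to induce FGF2 in cancer cells, was the highest HOXB gene in FS and came after HOXB9 in SDC, with 13.9, 14.4 and 13.1 FPKM in SDC and 20.8, 12.96 and 21.7 FPKM in FS. FS 2 stood apart with a value below all SDC libraries, and the fold change of 0.38 did not pass (adjusted p = 0.193). Without FS 2 it was 0.61 with an adjusted p of 0.0112. Leaving out the library that goes against a difference tends to lower p, so this value, and others like it below, is not a call.

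HOXB8, a neighbour of HOXB9, measured 3.20, 2.35 and 2.22 FPKM in SDC and 1.19, 2.21 and 1.66 FPKM in FS. All FS values were lower, yet FS 2 and SDC 3 nearly touched, and the change of -0.51 did not pass (adjusted p = 0.118, and 0.0499 without FS 2). HOXB2, a hindbrain gene, measured 5.03, 4.27 and 3.85 FPKM in SDC and 5.80, 6.25 and 5.64 FPKM in FS. HOXB3 measured 1.48, 1.64 and 1.59 FPKM in SDC and 2.17, 3.74 and 1.95 FPKM in FS. Both lay above SDC in every FS library, with adjusted p of 0.0662 and 0.104. HOXB4, used to expand blood stem cells in culture, measured 2.08, 2.15 and 2.73 FPKM in SDC and 2.46, 3.61 and 2.51 FPKM in FS, with overlap. HOXB6 measured 4.07, 2.36 and 3.20 FPKM in SDC and 3.69, 3.48 and 4.99 FPKM in FS, also with overlap, and 32.9% of its exon length is shared with HOXB3 or HOXB-AS3. HOXB5 stayed between 0.557 and 0.982 FPKM in all libraries. HOXB1, the most 3′ gene of the cluster, had 0 fragments in all 6 libraries, where 3 fragments would have been at most 0.0845 FPKM. Summed without HOXB9, the HOXB genes reached 30.4 ± 1.72 FPKM in SDC and 39.2 ± 3.60 FPKM in FS, without overlap. With HOXB9 the order was the opposite, at 58.4 ± 1.43 FPKM in SDC and 49.2 ± 6.44 FPKM in FS. Since HOXB9 fell, leaving it out raises FS against SDC by construction. The largest part of the remaining sum was HOXB7, with means of 13.8 FPKM in SDC and 18.5 FPKM in FS, which did not pass.

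In the HOXA cluster HOXA4 and HOXA5 rose, and no other gene passed. HOXA5, which in mice is needed for lung development, measured 4.18, 4.41 and 4.38 FPKM in SDC and 10.3, 7.29 and 8.03 FPKM in FS. Every FS library was above the narrow SDC range, and HOXA5 rose by 0.90 on the log2 scale (SE 0.16, adjusted p = 0.0058). Its exons (chr7:27141052-27143668, minus strand) overlap no other gene. HOXA4, its 3′ neighbour, measured 0.687, 0.878 and 0.765 FPKM in SDC and 2.29, 1.90 and 1.35 FPKM in FS. The groups did not overlap and HOXA4 rose by 0.86 (SE 0.22, adjusted p = 0.0208), on 19 to 67 fragments per library. This call was lost under 6 of 17 alternatives, among them leaving out SDC 1, SDC 2, SDC 3 or FS 1, with adjusted p of 0.0696, 0.0532, 0.0743 and 0.0504. However, 47.3% of its exon length (chr7:27128507-27130799) is shared with HOXA-AS2, HOXA-AS3 or AC004080.6, and the strand setting of the counting is not given in the sources used here, so reads from HOXA4 and these partners cannot be told apart.

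HOXA6 measured 1.52, 1.52 and 1.32 FPKM in SDC and 2.69, 1.29 and 1.74 FPKM in FS. HOXA7, reported to accompany epithelial differentiation in ovarian cancer, measured 2.41, 1.97 and 1.97 FPKM in SDC and 3.98, 1.53 and 3.39 FPKM in FS. In both genes FS 2 lay below all SDC libraries and the other FS libraries stood above them. Neither passed the test, although HOXA7 did without FS 2 (a log2 fold change of 0.68, adjusted p = 0.021). Of their exon lengths, 40.1% and 62.5% are shared with HOXA-AS3 or AC004080.5. The summed level of HOXA4 to HOXA7 was 8.67 ± 0.205 FPKM in SDC and 15.3 ± 3.71 FPKM in FS, and the groups did not overlap.

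The posterior HOXA genes are those of the reproductive tract. HOXA9 was by far the highest of them, with 14.01, 16.3 and 15.4 FPKM in SDC and 12.8, 13.4 and 8.84 FPKM in FS. Its FS values lay below all SDC values, but the change of -0.39 did not pass (adjusted p = 0.133), and 27.0% of its exon length is shared with HOXA10-AS, AC004080.3 or MIR196B. HOXA10, which shares 26.3% of its exon length with HOXA10-AS or AC004080.3, measured 2.56, 2.92 and 3.08 FPKM in SDC and 3.14, 3.27 and 2.41 FPKM in FS. HOXA11, with 31.1% shared with HOXA11-AS, measured 5.06, 5.77 and 3.45 FPKM in SDC and 4.99, 2.45 and 4.59 FPKM in FS. HOXA13 measured 2.46, 2.63 and 2.34 FPKM in SDC and 2.23, 2.75 and 1.83 FPKM in FS. The groups overlapped for all 3 of these, with log2 fold changes between -0.25 and 0.03. Together the posterior HOXA genes summed to 25.4 ± 2.00 FPKM in SDC and 20.9 ± 2.88 FPKM in FS, without overlap. Towards the anterior end, HOXA3 measured 3.18, 2.61 and 2.92 FPKM in SDC and 2.56, 3.29 and 2.64 FPKM in FS. The groups overlapped, and HOXA2 stayed between 0.324 and 0.670 FPKM.

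The HOXC cluster changed in both directions along its length. HOXC10, which in mice specifies lumbar motor neurons of the hindlimb, measured 2.30, 1.91 and 1.93 FPKM in SDC and 3.30, 6.08 and 5.68 FPKM in FS. The FS libraries were all higher, FS 1 least so, and HOXC10 rose by 1.08 on the log2 scale (SE 0.23, adjusted p = 0.0111), the highest fitted value on this scale among the HOX genes tested (chr12:53985065-53990279, plus strand, 9.82% of exon length shared). HOXC11, a member of the paralog group needed for kidney formation in mice, measured 0.774, 0.598 and 0.726 FPKM in SDC and 1.52, 1.48 and 1.60 FPKM in FS. It rose by 0.77 (SE 0.18, adjusted p = 0.0180), with no exon shared (chr12:53973126-53977643), and lost its call under 4 of 17 alternatives, among them leaving out SDC 2 (adjusted p = 0.0609) or SDC 3 (0.06998). HOXC8, a gene of brachial and thoracic levels, measured 5.42, 5.46 and 5.53 FPKM in SDC and 4.04, 2.56 and 3.24 FPKM in FS. All FS values lay below the very narrow SDC range and HOXC8 fell by 0.68 (SE 0.17, adjusted p = 0.0205), again with no exon shared (chr12:54009106-54012362). The call on HOXC8 was lost when any SDC library was left out, with adjusted p of 0.0630 to 0.0810.

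Between and beside these, HOXC9 measured 12.1, 8.93 and 9.77 FPKM in SDC and 11.4, 9.02 and 10.7 FPKM in FS. HOXC12 measured 4.05, 3.49 and 4.17 FPKM in SDC and 4.24, 3.81 and 6.12 FPKM in FS. HOXC13, a gene of hair and nail formation, measured 7.35, 6.96 and 6.44 FPKM in SDC and 6.03, 6.05 and 6.70 FPKM in FS. The groups overlapped for all 3 genes, with log2 fold changes of 0.02, 0.22 and -0.13. HOXC6 measured 3.25, 4.25 and 3.28 FPKM in SDC and 2.63, 3.17 and 3.19 FPKM in FS. HOXC4 measured 0.672, 0.358 and 0.936 FPKM in SDC and 1.16, 1.33 and 1.38 FPKM in FS. Neither passed, with adjusted p of 0.314 and 0.0769, although the FS libraries were all lower for HOXC6 and all higher for HOXC4. The protein-coding HOXC5 entry stayed between 0.155 and 0.543 FPKM, and 59.9% of its exon length is shared with the second HOXC5 entry or AC012531.2. The second entry was at 0 in all 6 libraries, and 99.8% of its exon length is shared with other genes.

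In the HOXD cluster HOXD8 and HOXD9, direct neighbours, moved in opposite directions. HOXD8 measured 6.05, 5.49 and 5.89 FPKM in SDC and 3.25, 3.31 and 2.62 FPKM in FS. Both groups were narrow and far apart, and HOXD8 fell by 0.83 on the log2 scale (SE 0.14, adjusted p = 0.0053), a mean 1.90-fold lower in FS (chr2:176129694-176132695). HOXD9, a lumbar-level gene, measured 7.94, 4.92 and 5.26 FPKM in SDC and 9.57, 11.2 and 12.1 FPKM in FS. Every FS library was above SDC 1, the highest SDC library, and HOXD9 rose by 0.83 (SE 0.20, adjusted p = 0.0171), a mean 1.82-fold higher in FS (chr2:176122720-176124937). This call was lost without SDC 2, SDC 3 or FS 3, with adjusted p of 0.0672, 0.0729 and 0.0504. Neither gene shares exons with another.

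HOXD10, another lumbar-level gene, was the second highest HOX gene in 5 of 6 libraries. It measured 18.4, 20.6 and 18.4 FPKM in SDC and 17.2, 30.0 and 16.9 FPKM in FS, so only FS 2 was higher than SDC. HOXD11, which shares 21.4% of its exon length with HOXD10, measured 6.02, 5.58 and 4.64 FPKM in SDC and 5.66, 12.3 and 6.72 FPKM in FS, again with FS 2 highest. HOXD13, the digit gene mutated in synpolydactyly, measured 5.75, 5.63 and 5.78 FPKM in SDC and 6.02, 2.82 and 4.31 FPKM in FS, with FS 2 lowest. None of these genes passed the test, and without FS 1 HOXD13 had a change of -0.64 with an adjusted p of 0.0410. HOXD1 had too low a mean to be tested at 0.831, 1.16 and 0.400 FPKM in SDC and 0.121, 0.0931 and 0.0894 FPKM in FS. Its FS values rested on 4, 3 and 3 fragments against 26, 33 and 13 in SDC, and every FS library was lower. With the minimum mean lowered to 0.1 FPKM its change was -1.07 (adjusted p = 0.0249), but 58.1% of its exon length is shared with HAGLR, AC009336.3 or MIR7704. HOXD3, HOXD4 and HOXD12 did not exceed 0.466 FPKM in any library. Of the exon lengths of HOXD3 and HOXD4, 74.1% and 80.5% are shared with other genes.

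**Figure D3:**
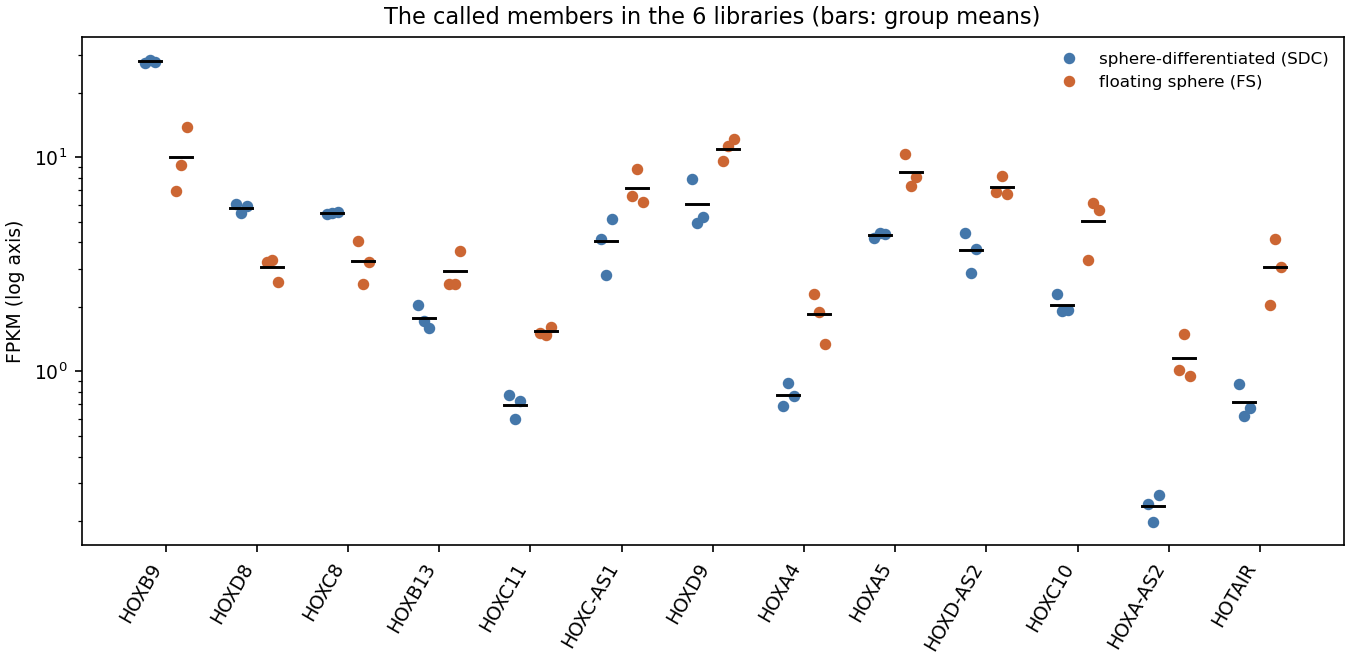
FPKM on a log axis of the 13 members that passed the test, in order of fold change, with 1 point per library and a bar at each group mean. The groups do not overlap for any of the 13, and the SDC points of HOXB9, HOXC8, HOXD8 and HOXA5 lie closer together than their FS points.

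The 8 tested noncoding RNAs among the members all leaned towards FS, but other noncoding RNAs of the clusters mostly did not. Of 8 other cluster transcripts tested, 7 had a negative log2 fold change, and the median was -0.36. Only 2 of these 8 were called, both lower, and HOXB-AS2 and MIR615 lay near 0 at -0.03 and -0.16. Signs so near 0 carry little weight, as with HOXA11-AS at 0.18 among the member RNAs. Of the 10 member RNAs 8 were tested with limma, 4 rose and 0 fell (0 also before adjustment and with voom). All 8 had a positive log2 fold change, with a median of 0.95. HOXA-AS2, counted among the rises, reached the minimum mean only through its FS values. Among 2039 long noncoding RNA genes tested, 23.0% were called, with 15.9% higher and 7.01% lower, 65.2% had a positive fold change and the median was 0.24. None of the scalings tried turned the direction of any tested member RNA. Summed, the 10 RNAs reached 14.4 ± 2.36 FPKM in SDC and 32.3 ± 10.9 FPKM in FS, a 2.25-fold higher mean in FS without overlap.

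HOTAIR, transcribed from the HOXC cluster and described as a binder of the Polycomb complex PRC2 that acts on HOXD in trans, measured 0.874, 0.616 and 0.677 FPKM in SDC and 2.04, 4.15 and 3.05 FPKM in FS. All FS libraries exceeded all SDC libraries, FS 2 by the most, on 23 to 36 fragments in SDC and 89 to 176 in FS. HOTAIR rose by 1.51 on the log2 scale (SE 0.25, adjusted p = 0.0048), the highest fitted value on log2(FPKM + 0.5) among the tested members, with a mean 4.26-fold higher in FS. It lies at chr12:53962308-53974956 on the minus strand, 5′ of HOXC10 and reaching into the bounds of HOXC11, and 6.38% of its exon length is shared, with annotated RNA structure entries.

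HOXA-AS2, antisense to the region of HOXA3 and HOXA4 (chr7:27107777-27134302, plus strand), measured 0.239, 0.198 and 0.265 FPKM in SDC and 1.02, 1.49 and 0.947 FPKM in FS. It rose by 1.16 on the log2 scale (SE 0.25, adjusted p = 0.0113), with a mean 4.92-fold higher in FS on 15 to 128 fragments. Its SDC mean of 0.234 FPKM was under the minimum mean of 0.5 FPKM, which HOXA-AS2 reached only through FS. With the minimum lowered to 0.1 FPKM the adjusted p was 0.0086. Of its exon length 11.9% is shared with HOXA3 or HOXA4. HOXD-AS2, antisense across HOXD9 and HOXD8 up to the start of HOXD3 (chr2:176121611-176137098, minus strand), measured 4.42, 2.88 and 3.74 FPKM in SDC and 6.85, 8.15 and 6.75 FPKM in FS. It rose by 0.90 (SE 0.18, adjusted p = 0.0082), and 26.5% of its exon length is shared with HOXD3, which itself did not exceed 0.190 FPKM. HOXC-AS1, from the HOXC9 locus (chr12:53999022-54000010, minus strand), measured 4.16, 2.83 and 5.13 FPKM in SDC and 6.55, 8.80 and 6.16 FPKM in FS. It rose by 0.77 (SE 0.23, adjusted p = 0.0360) and shares no exon, but this call was lost under 10 of 17 alternatives.

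HOTAIRM1, a myeloid RNA from the HOXA cluster, measured 3.71, 2.66 and 2.80 FPKM in SDC and 8.61, 12.9 and 2.36 FPKM in FS. FS 1 and FS 2 stood far above SDC and FS 3 lay below it, and the fold change of 1.00 did not pass (adjusted p = 0.17). Without FS 3 it was 1.65 with an adjusted p of 0.0067. HOXB-AS1, antisense to HOXB2 and HOXB3, measured 0.972, 0.894 and 0.740 FPKM in SDC and 1.38, 5.90 and 2.00 FPKM in FS. Its FS values were all higher with FS 2 far above the rest, and the change of 1.19 had an adjusted p of 0.0662, or 0.0259 without FS 1. Of its exon length 29.6% is shared with HOXB3, HOXB2 or HOXB-AS3, and of that of HOTAIRM1 44.9% is shared, mostly with RNA structure entries. HOXA10-AS and HOXA11-AS stayed between 0.379 and 1.18 FPKM, with 62.3% and 59.3% of their exon lengths shared. Of the RNAs that were not tested, HOXA-AS3 measured 0.201, 0.140 and 0.356 FPKM in SDC and 0.830, 0.555 and 0.493 FPKM in FS. HOTTIP, described as a partner of WDR5 at the 5′ end of the HOXA cluster, stayed between 0.129 and 0.374 FPKM. Of the exon lengths of HOXA-AS3 and HOTTIP, 39.3% and 20.1% are shared with other genes.

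By position, the tested genes of paralog groups 1 to 3 gave 0 calls among 4 with limma (2 higher before adjustment, 0 with voom). Those of groups 4 to 8 gave 2 higher and 2 lower among 13, or 30.8% called. Those of groups 9 to 13 gave 4 higher and 1 lower among 15, or 33.3%. Among all genes tested 33.6% were called, so neither share stood far from the background. By cluster, 2 of 10 HOXA genes rose and 0 fell with limma (0 lower also before adjustment and with voom), 1 of 9 HOXB genes rose and 1 fell, 2 of 8 HOXC genes rose and 1 fell, and 1 of 5 HOXD genes rose and 1 fell. The summed level of HOXD genes in groups 4 to 8, almost all of it HOXD8, was 6.06 ± 0.334 FPKM in SDC and 3.18 ± 0.441 FPKM in FS. HOXD genes in groups 9 to 13 summed to 36.5 ± 2.12 FPKM in SDC and 44.97 ± 9.87 FPKM in FS, where the groups did not overlap in FPKM but did after rescaling to TPM. HOXC genes in groups 4 to 8 summed to 9.96 ± 0.395 FPKM in SDC and 7.98 ± 0.339 FPKM in FS, without overlap. Those in groups 9 to 13 summed to 23.8 ± 2.43 FPKM in SDC and 27.9 ± 2.52 FPKM in FS, with overlap. These sums are descriptions, since genes of a cluster are not replicates.

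**Figure D4:**
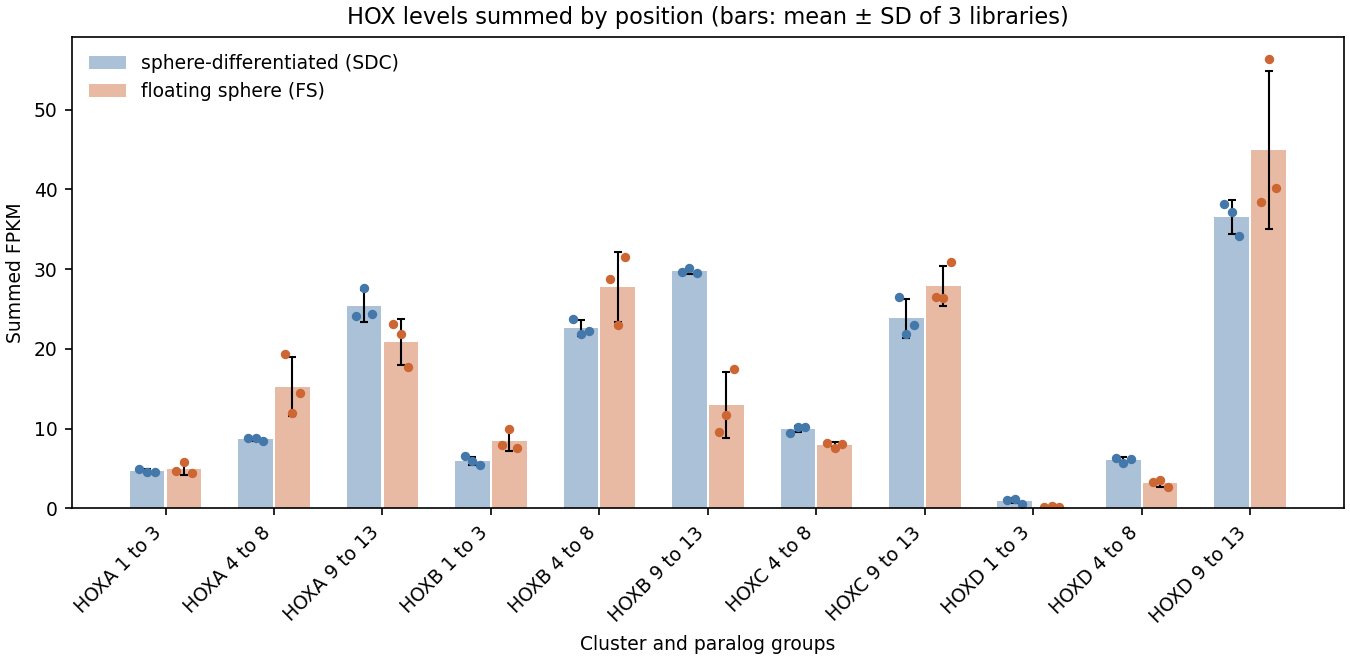
Summed FPKM of the HOX genes by cluster and paralog groups, as the mean of 3 libraries with bars of 1 SD and a point per library. The largest drop in FS is that of HOXB groups 9 to 13, from 29.8 to 12.9 FPKM, and HOXA groups 4 to 8 stand higher in FS.

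The FS libraries varied more than the SDC libraries. For 30 of 40 tested members the SD was larger in FS, and the median coefficient of variation was 24.1% in FS and 13.02% in SDC. Over all genes the same medians were 22.5% and 12.6%, so this was not particular to the HOX members. FS 2 was the highest FS library for 22 of the 40 members. This was not counted over all genes, so it cannot be called particular to the members. FS 2 also had the most genes at 1 FPKM or more, 13857 against 13143 in FS 1 and 13335 in FS 3. Exons shared over more than 20% of a member's length concerned 13 of the 40, of which HOXA4 and HOXD-AS2 were called, and 12 of the 40 share no exon at all.

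HOX transcripts are known targets of miR-196, whose hairpins lie within the HOXA, HOXB and HOXC clusters, and HOXB8 is cleaved by it in mouse embryos. The sequences are shown because HOXB8, HOXC8 and HOXA5 stand in the results above, and because a hairpin locus of this miRNA was among the cluster transcripts that fell. Mature miRNAs were not measured in these libraries. The miRNAs (RefSeq, GRCh38.p14) have their seed, bases 2 to 8, in capitals, and the sites from 3′ UTRs (GENCODE 29, hg38, 5′ to 3′ on the transcribed strand) have the bases that face the seed in capitals.
hsa-miR-196a-5p (MIR196A1 at chr17:48632532-48632553, MIR196A2 at chr12:53991762-53991783): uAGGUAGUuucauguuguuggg
hsa-miR-196b-5p (MIR196B at chr7:27169528-27169549): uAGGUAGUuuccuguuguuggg
HOXB8 site (chr17:48612770-48612791, minus strand): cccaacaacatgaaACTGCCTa
HOXC8 site (chr12:54011495-54011516, plus strand): cactcacaactctaACTACCTg
HOXC8 second site (chr12:54012231-54012252, plus strand): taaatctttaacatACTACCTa
HOXA7 site (chr7:27154430-27154451, minus strand): cctactcccctaaaACTACCTa
HOXA5 site (chr7:27141387-27141408, minus strand): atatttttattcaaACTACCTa

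Both miRNAs share the seed AGGUAGU and differ by A12C, counted from the 5′ end with the base of miR-196a first. The HOXB8 site could form 21 Watson-Crick pairs and 1 G-U pair over 22 bases with miR-196a, the most of the 39 HOX genes, and HOXA7 came next with 15 and 2. An exact seed match, ACTACCT, stood in the 3′ UTR of 9 of 39 HOX genes (23.1%), against 7.87% of 19125 other protein-coding genes and 4.79% of 2380 with a 3′ UTR of similar length. They included HOXA5, HOXA7, HOXA9, HOXB1, HOXB6, HOXB7, HOXB13 and HOXC8. Among them HOXA5 and HOXB13 rose, HOXC8 fell, HOXB1 was not tested and the others gave no call. Genes with a match thus moved in both directions, though the calls on HOXB13 and HOXC8 were lost under some alternatives. A match is a description of letters and not a measured site. The hairpin locus MIR196A1 measured 9.92, 7.97 and 14.8 FPKM in SDC and 3.41, 1.75 and 5.04 FPKM in FS. This locus lies within the bounds of HOXB7 and HOXB-AS4 but shares no exon with them. It fell by 1.60 on the log2 scale (SE 0.35, adjusted p = 0.0129), but on only 8 to 17 fragments in SDC and 2 to 6 in FS, and it did not pass with limma voom on fragments (adjusted p = 0.0618). MIR196A2 had no fragment in 5 libraries and MIR196B none in 6. However, 100% of the MIR196B length is shared with HOXA10-AS or HOXA9, and how shared fragments were counted is not given.

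RefSeq promoters (250 bases before to 50 after a start site) matched 26 member names with 33 entries. Searched on both strands were the TATA box in its common form TATAAA and the box bound by the factor NF-Y, which reads CCAAT. Searched in the same way were the sequence that HOX and PBX proteins bind together, TGATTNAT, the core that many homeodomains bind, TAATTA, and the sequence that AP-1 binds, TGACTCA. None of these motifs contains another. CCAAT was in 21 of the 33 entries, from 20 of the 26 names, and in 32.0% of all 35116 entries. TAATTA was in 3 of the 33 and 4.35% of all, TGATTNAT in 2 and 2.48%, TATAAA in 5 and 10.7%, and TGACTCA in 0 and 4.20%. The median number of CpG dinucleotides was 16 in the members' entries and 11 over all promoters. Shown are 120 bases upstream of a RefSeq start for 2 pairs of neighbours (GRCh38.p14, strand of the gene, motifs in capitals). The pairs are HOXA4 with HOXA-AS2, which both rose, and HOXD8 with HOXD-AS2, which moved in opposite directions. The start used for HOXA-AS2 is an internal one, well inside the gene bounds given above. Only exons of protein-coding transcripts were avoided, so overlap with exons of HOXA-AS2 itself was not checked. The stretches end 42 bases before the start for HOXA4, 11 for HOXD8 and 0 for both RNAs.
HOXA4 (chr7:27130800-27130919, minus strand): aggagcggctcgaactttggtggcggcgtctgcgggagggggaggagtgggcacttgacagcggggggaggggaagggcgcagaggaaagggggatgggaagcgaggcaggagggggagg
HOXA-AS2 (chr7:27121799-27121918, plus strand): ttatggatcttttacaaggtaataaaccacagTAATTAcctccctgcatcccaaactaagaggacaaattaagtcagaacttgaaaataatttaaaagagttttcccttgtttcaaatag
HOXD8 (chr2:176129574-176129693, plus strand): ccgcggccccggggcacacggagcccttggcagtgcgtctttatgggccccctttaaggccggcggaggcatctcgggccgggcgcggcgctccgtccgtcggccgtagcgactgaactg
HOXD-AS2 (chr2:176137099-176137218, minus strand): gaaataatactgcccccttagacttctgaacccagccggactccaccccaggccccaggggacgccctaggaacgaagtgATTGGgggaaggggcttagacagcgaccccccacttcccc

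The HOXD8 stretch held 17 CpG and the HOXA-AS2 stretch 0, with a TAATTA in the latter, while the HOXD-AS2 stretch held a CCAAT on the opposite strand. HOXA4 and HOXD8 had none of the motifs in these bases. Nothing follows from this about the factors named.

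HOX proteins bind DNA together with TALE homeodomain partners of the PBX, MEIS and PKNOX families. Of 9 TALE cofactors 8 were tested with limma, 2 rose and 0 fell (0 also before adjustment and with voom), which is 25.0% called against 33.6% of all genes, with a median log2 fold change of 0.45. MEIS3 measured 7.03, 4.33 and 6.14 FPKM in SDC and 12.5, 15.1 and 15.7 FPKM in FS and rose by 1.25 (SE 0.19, adjusted p = 0.0039). PBX2 measured 7.43, 7.69 and 7.94 FPKM in SDC and 11.6, 13.7 and 11.8 FPKM in FS and rose by 0.65 (SE 0.13, adjusted p = 0.0084). In both genes every FS library was above every SDC library. PBX4 measured 3.39, 3.33 and 2.95 FPKM in SDC and 3.76, 6.55 and 5.25 FPKM in FS (adjusted p = 0.0583). PBX3 measured 4.92, 4.45 and 4.91 FPKM in SDC and 5.93, 5.24 and 5.80 FPKM in FS (adjusted p = 0.202). Neither of these passed, nor did MEIS1, MEIS2 or PKNOX1 with log2 fold changes of 0.23, 0.38 and -0.06, and PKNOX2 did not exceed 0.0750 FPKM.

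Among other transcripts of the clusters the calls were falls. Of 16 such entries 8 were tested with limma, 0 rose (0 also before adjustment and with voom) and 2 fell, MIR196A1 and HAGLR. That is 25.0% called against 33.6% of all genes, of which 17.8% fell. HAGLR, a long RNA between HOXD1 and HOXD3, measured 3.93, 4.33 and 4.54 FPKM in SDC and 0.537, 1.73 and 0.887 FPKM in FS. It fell by 1.69 on the log2 scale (SE 0.28, adjusted p = 0.0046), the direction in which HOXD1 also differed, and these 2 genes share exon sequence. The tested entry HAGLROS had a log2 fold change of 0.17. HOXC-AS3 and HOXB-AS3 were too low to be tested and had means of 0.0140 and 0.298 FPKM in SDC against 0.148 and 0.503 FPKM in FS, where HOXC-AS3 rested on 0 to 1 fragments in SDC and 6 to 9 in FS. HOXB-AS4, beyond the 5′ end of HOXB9, measured 3.30, 5.63 and 2.82 FPKM in SDC and 2.32, 2.02 and 1.85 FPKM in FS (adjusted p = 0.0511). Of the 11 genes that flank the clusters 8 were tested with limma, 3 rose and 0 fell (1 lower before adjustment, 0 with voom), which is 37.5% called against 33.6% of all genes. HIBADH beyond the 5′ end of HOXA rose by 1.38, from 14.8, 16.2 and 15.0 FPKM in SDC to 48.2, 44.5 and 31.5 FPKM in FS (adjusted p = 0.0022). SKAP1 beside HOXB rose by 0.93, from 1.05, 1.03 and 0.803 FPKM in SDC to 2.46, 3.15 and 1.47 FPKM in FS (adjusted p = 0.028). CBX5 beside HOXC, a heterochromatin protein, rose by 0.59, from 8.33, 9.85 and 9.48 FPKM in SDC to 13.4, 12.7 and 16.4 FPKM in FS (adjusted p = 0.0205). Rises were thus not limited to the HOX genes of a region.

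**Figure D5:**
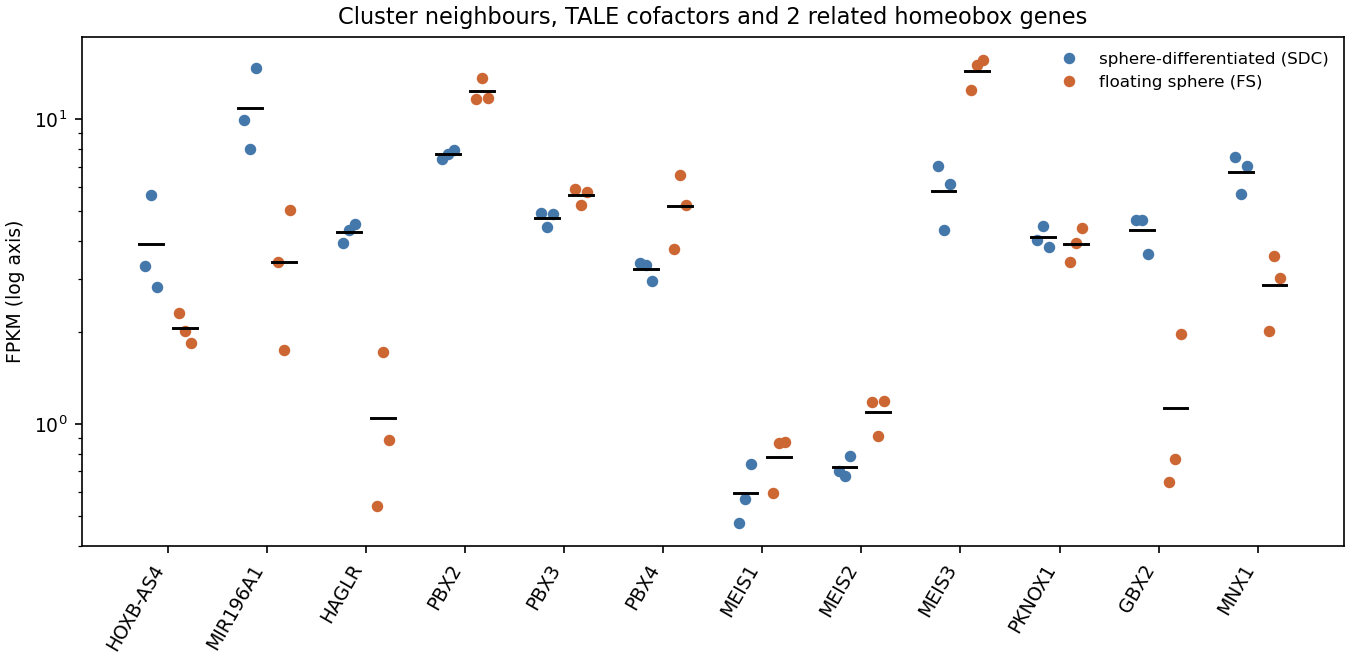
FPKM on a log axis of cluster transcripts, TALE cofactors and the related homeobox genes GBX2 and MNX1, with 1 point per library and a bar at each group mean. HAGLR, MIR196A1, GBX2 and MNX1 have every FS point below every SDC point, and MEIS3 and PBX2 have every FS point above. Genes that did not pass the test can also lie apart, such as HOXB-AS4 below and PBX3 and PBX4 above.

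Genes that act upstream of the clusters were counted as lists. Retinoic acid induces 3′ HOX genes through RAR and RXR receptors, and of 18 retinoid genes 11 were tested with limma, 4 rose and 0 fell (1 lower before adjustment, 0 with voom), which is 36.4% called against 33.6% of all genes. CRABP2, a carrier of retinoic acid to the nucleus, measured 10.6, 7.29 and 9.78 FPKM in SDC and 16.3, 54.2 and 28.7 FPKM in FS and rose by 1.64 (adjusted p = 0.0179). The receptor gene RARG measured 10.9, 8.83 and 9.88 FPKM in SDC and 17.1, 16.2 and 16.3 FPKM in FS and rose by 0.72 (adjusted p = 0.0064). RXRA measured 14.6, 11.1 and 13.1 FPKM in SDC and 17.2, 19.6 and 22.2 FPKM in FS and rose by 0.58 (adjusted p = 0.0272). RARA rose by 0.73 (adjusted p = 0.0358), while RARB did not exceed 0.0498 FPKM. Polycomb proteins keep HOX genes silent and trithorax proteins keep them active, and of 28 such genes all were tested, 3 rose and 8 fell (39.3% called, against 33.6% of all genes). EZH2, the methyltransferase of PRC2, measured 14.6, 15.7 and 15.4 FPKM in SDC and 21.1, 38.4 and 31.1 FPKM in FS and rose by 0.92 (adjusted p = 0.016). DOT1L, a histone methyltransferase, measured 2.26, 1.62 and 2.23 FPKM in SDC and 5.99, 8.19 and 5.22 FPKM in FS and rose by 1.44 (adjusted p = 0.0028). PHC2 of the Polycomb complex PRC1 rose by 0.59. The genes that fell included RING1, BMI1, CBX6 and PHC1 of PRC1, KMT2A and RBBP5 of the trithorax complexes, and CTCF, which bounds domains within the clusters. RBBP5 measured 15.0, 18.0 and 15.8 FPKM in SDC and 7.34, 7.87 and 8.89 FPKM in FS, a change of -0.97 (adjusted p = 0.0029). CTCF measured 20.4, 22.5 and 20.3 FPKM in SDC and 12.6, 7.62 and 12.03 FPKM in FS, a change of -0.97 (adjusted p = 0.0103). In both genes the FS libraries all lay below SDC. The list had a median log2 fold change of -0.12, against 0.0032 for all genes.

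Related homeobox genes outside the clusters were mostly silent. Of 13 listed ANTP-class genes only GBX2 and MNX1 were tested, and both fell (with limma 0 rose, and 0 before adjustment or with voom). Among all genes tested 17.8% fell. GBX2, a gene of the anterior hindbrain, measured 4.69, 4.67 and 3.62 FPKM in SDC and 0.644, 0.768 and 1.98 FPKM in FS, a change of -1.65 (SE 0.30, adjusted p = 0.00685). MNX1, a motor neuron and pancreas gene, measured 7.51, 5.71 and 7.01 FPKM in SDC and 2.02, 3.56 and 3.03 FPKM in FS, a change of -1.13 (SE 0.21, adjusted p = 0.0070). Of 9 genes reported as HOX targets 5 were tested with limma, 0 rose (0 also before adjustment and with voom) and 1 fell. FGF2, reported as a target of HOXB7, measured 74.9, 97.9 and 81.1 FPKM in SDC and 18.8, 28.2 and 29.7 FPKM in FS, a change of -1.73 (adjusted p = 0.0018). HOXB7 itself gave no call.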

How the data were processed

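RNA was sequenced from 3 FS and 3 SDC libraries made with a NEBNext Ultra RNA kit. The authors deposited FPKM per gene and library. The authors' processing notes name hg38, featureCounts 1.5.0-p3 and DESeq2 1.20.0, and the authors' methods name featureCounts and edgeR. Not given in the sources used here are the aligner, the annotation, the strand setting and the handling of fragments on overlapping genes. Multiplied by merged exon length in GENCODE 29, 100% of the values above 0 came out whole within 0.01, so fragments were recovered. Recovered totals were 96.2% to 103% of those the FPKM imply. In SDC 2 the recovered total of 14725462 exceeded the implied 14342431, so its FPKM were not scaled by the plain fragment total. The second HOXC5 entry was identified this way.

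Since the values are FPKM, no count test was used. limma 3.58.1 in R 4.3.3 was fitted to log2(FPKM + 0.5), with an intensity trend and group as the only term, for the 15719 genes that reached a mean of 0.5 FPKM, with Benjamini-Hochberg adjustment over all of them. Errors are the SD over 3 libraries or the SE of the fit. Floors of 3 fragments cover counting error only. Groups of 3 allow no exact two-sided permutation p under 0.1. The study states for its experiments in general that at least 3 replicates were biological. No label says so of these libraries, and if they share a culture the p values measure technical spread only. The test was tried on simulated data. The members and the gene lists were chosen with earlier results of these data known. The rule for naming gave per-library values for members with a mean of at least 1 FPKM in either group or an adjusted p under 0.05, in each list the 3 called genes whose adjusted p was smallest and, whether called or not, the TALE cofactors, and named any exon overlap over 20%. HOXD1, HOXA-AS3, HOXB-AS4, EZH2 and CTCF were given values outside it, after these were seen. Alternatives changed the pseudocount, filter, scaling, replicate term, moderation or measure, or left out each library in turn. Libraries with the same number did not deviate together (correlations -0.074 to -0.020, 0 of 6 closest to their own number), so the numbers were not treated as pairs. Columns of other samples did not occur. Values of a few genes are not reported here, and these genes stay in the counts and sums.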

Additional observations from a re-analysis of the deposited data

How the results depend on the processing

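Of the 13 members called, HOTAIR, HOXA-AS2, HOXA5, HOXB9, HOXC10, HOXD-AS2 and HOXD8 kept their call under every alternative that tested them (16 for HOXA-AS2, 17 for the others). HOXA-AS2 entered the main test only through its FS values. HOXC-AS1 lost its call under 10 of 17 alternatives, HOXB13 under 9, HOXA4 under 6, HOXC11 under 4, and HOXC8 and HOXD9 under 3 each, all in the same direction. The number of members that rose was 10, and it was 6 without a filter on low values. The number that fell was 3, and 2 to 4 elsewhere. Leaving out 1 library gave 5 to 11 members that rose (7, 5 and 6 without SDC 1, 2 and 3) and, over the fixed lists, 7 to 17 genes that rose against 14 (9, 7 and 8 without SDC 1, 2 and 3). Over all genes the rises also dropped without SDC 1, 2 or 3, from 2487 to 1711, 1424 and 1352. Of the member fits with 1 library left out, 21 lost a call and 6 gained one. Those 6 are the fits given above for HOXA7, HOXB7, HOXB8, HOXD13, HOTAIRM1 and HOXB-AS1, and they do not count as calls.

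A replicate block on the numbers in the titles gave 6 members that rose and 3 that fell, and 1994 and 2094 genes over all. HOXA4 (adjusted p = 0.0507), HOXC11 (0.0561), HOXC-AS1 (0.0791) and HOXB13 (0.0959) lost their call. The libraries share only a number.

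No called member reversed. Uncalled members with fold changes near 0 did. HOXA10 was -0.033 after rescaling to TPM and -0.0070 after quantile normalization, and HOXC9 was -0.052 after rescaling to TPM. With 1 library left out, the range was -0.13 to 0.024 for HOXA3, -0.038 to 0.15 for HOXA10, -0.44 to 0.034 for HOXA11, -0.24 to 0.0012 for HOXA13, -0.16 to 0.081 for HOXB5, -0.069 to 0.14 for HOXC9 and -0.16 to 0.24 for HOXD10. Members on few fragments were limited by depth, and the 10 entries under 0.5 FPKM were not tested. The cause of these shifts was not tested.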
